A study of Mus musculus with 12 samples.

Results

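The Shank, SAPAP and Homer genes code for the 3 layers of scaffold protein that lie beneath the receptors of excitatory synapses. All 10 genes of the 3 families (Shank1 to Shank3, Dlgap1 to Dlgap4, which code for SAPAP1 to SAPAP4, and Homer1 to Homer3) were taken by symbol from the 19312 genes measured, and all 10 passed the filter on low values in every comparison. RNA was sequenced from the brains of 12 male C57BL/6N mice at postnatal day 25, with 3 mice in each of 4 groups and no pooling. Wild-type mice given vehicle (WT-V) or memantine (WT-M) were set beside knockout mice, in which both copies of Shank2 lack exons 6 and 7, given vehicle (KO-V) or memantine (KO-M). The deletion is a germline one, so it is present in all cells. Memantine, an uncompetitive blocker of NMDA receptors, was given by mouth at 20 mg/kg in 0.1% saccharin 2 times a day from postnatal day 7 to 21, and vehicle mice received the saccharin alone. The labels name whole brain, whereas the methods name forebrain without the cerebellum and the brain stem below it.

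SAPAPs bind PSD-95 with one part of the protein and the PDZ domain of the Shanks with another, so they bridge the receptor layer and the deeper Shank layer. Shanks in turn bind Homers through a proline-rich stretch, and Homers join Shanks to the metabotropic glutamate receptors and to the calcium release channels of the endoplasmic reticulum. Homer1 also gives rise to Homer1a, a short form induced by neuronal activity that lacks the coiled coil by which the long Homers join to each other.

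The sequences of the deleted exons show what the mutation removes. They are given on the plus strand of GRCm38 in lower case, with exons counted along the annotated transcript Shank2-202; the transcript by which the exons of the mouse line are numbered is not given in the sources used here. The pair codes for a large part of the PDZ domain that binds SAPAPs.
Shank2 exon 6, chr7:144285055-144285137: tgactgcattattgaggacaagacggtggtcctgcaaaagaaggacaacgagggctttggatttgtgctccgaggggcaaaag
Shank2 exon 7, chr7:144286642-144286766: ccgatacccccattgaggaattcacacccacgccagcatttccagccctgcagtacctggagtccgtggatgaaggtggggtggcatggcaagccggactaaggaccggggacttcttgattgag
The exons hold 83 and 125 bases, and both are present in 5 of the 6 annotated Shank2 transcripts. Together they make 208 bases, which leaves a remainder of 1 on division by 3 and is 2.55% of the 8169 bases of Shank2-202. The values below are summed over all transcripts of a gene, so transcripts with and without these exons are not told apart.

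Values are normalized counts, which the authors had already scaled between mice, and the sums of 30373849 to 31199251 per mouse are therefore not depths. The number of reads behind each mouse is unknown from these values. A mouse stood apart in its cerebellar markers. KO-V replicate 3 had higher levels of 4 of the 5 cerebellar markers than every other mouse, with a normalized count of 745 for Cbln3 against 11.3 to 65.0 in the others, 380 for Pcp2 against 7.0 to 21.5, 254 for Gabra6 against 0 to 12.9, and 806 for Car8 against 206 to 347. The genotype values over both treatments for the 9 members other than Shank2, the Veh-K/W value of Shank2, and the counts of the gene lists are therefore also given without this mouse. Other mice deviated in other ways. WT-M replicate 3 held the lowest values of Shank1 (14159) and Dlgap2 (1832). Leaving out KO-M replicate 3 gave 1911 called genes in Mem-K/W transcripts, the most for any mouse left out there. The general neuron markers (6), excitatory markers (5) and striatal markers (6) were all detected, and none of them was called between genotypes over both treatments.

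Shank2 was the only one of the 10 genes called in either comparison of KO with WT mice under the same treatment. Its normalized counts were 8248, 7427 and 8325 in WT-V, 7936, 8548 and 7156 in WT-M, 3053, 3006 and 2723 in KO-V, and 2817, 2706 and 3178 in KO-M mice (ENSMUSG00000037541, chromosome 7, 144001928 to 144424494, GRCm38). Every KO mouse lay below every WT mouse, and the spread within each group was small beside that gap. In Veh-K/W transcripts (KO-V against WT-V), Shank2 fell to 0.366 times the WT level (log2 fold change -1.45, SE 0.07; limma, adjusted p = 1.77e-05). In Mem-K/W transcripts (KO-M against WT-M) it fell to 0.368 times (-1.44, SE 0.08; limma, adjusted p = 0.000186). Both folds are nearly the same, and the term for their difference was 0.01 with a 95% confidence interval of -0.24 to 0.25 on the log2 scale. Without KO-V replicate 3, the Veh-K/W change was -1.40 (adjusted p = 0.000202, limma). In bulk tissue, fewer cells of a type and less RNA per cell cannot be told apart.

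**Figure D1:**
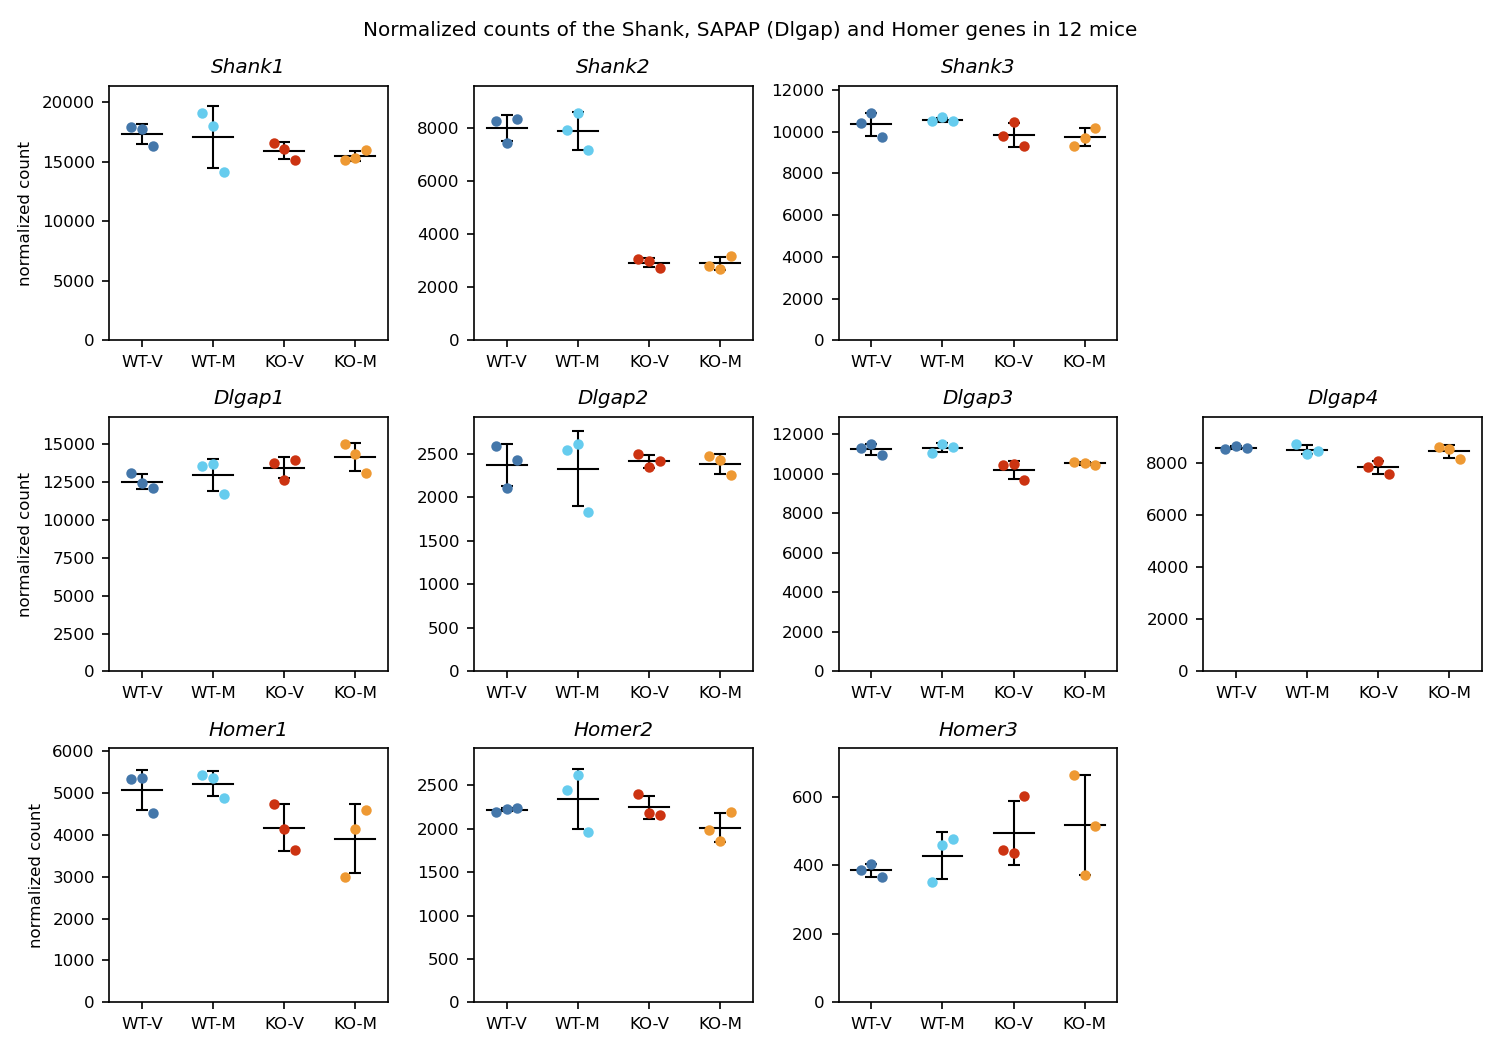
Normalized count (vertical axis, from 0) of each of the 10 scaffold genes in the 12 mice, with 3 points per group and black bars for the mean and SD. Shank2 separates into WT mice at 7156 to 8548 and KO mice at 2706 to 3178, Dlgap3 separates by a much smaller gap, and the other 8 genes overlap between genotypes.

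Neither of the other Shank genes was called, and both had lower means in KO mice. Shank1, a Shank of forebrain and cerebellar synapses (ENSMUSG00000038738, chromosome 7, 44310253 to 44360572), had 17913, 17745 and 16350 normalized counts in WT-V, 19078, 18044 and 14159 in WT-M, 16608, 16071 and 15138 in KO-V, and 15188, 15283 and 16001 in KO-M mice. WT-M replicate 3 held the lowest value of all 12 mice, and the genotypes overlapped. Over both treatments, with all 12 mice in one fit, the log2 fold change of Shank1 was -0.13 (95% confidence interval -0.26 to 0.00; adjusted p = 0.181, limma). It passed the threshold only when WT-M replicate 3 was left out (-0.18, adjusted p = 0.0333).

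Shank3, the Shank whose loss in humans is tied to Phelan-McDermid syndrome (ENSMUSG00000022623, chromosome 15, 89499623 to 89560261), had 10409, 10878 and 9758 normalized counts in WT-V, 10507, 10683 and 10487 in WT-M, 9770, 10458 and 9315 in KO-V, and 9327, 9689 and 10168 in KO-M mice. After memantine all 3 KO mice lay below all 3 WT mice, whereas under vehicle the groups overlapped. Its pooled log2 fold change was -0.10 (95% confidence interval -0.18 to -0.01; adjusted p = 0.138, limma). Without KO-V replicate 3 it was -0.08, and the interval (-0.17 to 0.01) included 0.

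Set on one scale by exon length, the 3 Shanks show how much of the family was lost. Shank2 made 21.2% ± 1.72 (SD, n = 3) of the summed Shank level per kilobase of exon in WT-V and 9.50% ± 0.17 in KO-V mice. The summed level of the 3 genes was 3518 ± 113 normalized counts per kilobase in WT-V and 2860 ± 133 in KO-V (SD, n = 3). After memantine the sums were 3507 ± 307 in WT-M and 2801 ± 108 in KO-M mice. The levels per kilobase of Shank1 and Shank3 in KO-V, 1516 ± 70.8 and 1072 ± 62.7, were not above those in WT-V, 1649 ± 81.6 and 1126 ± 61.2.

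Among the SAPAP genes, Dlgap3 was lower in all KO mice by a small margin. Dlgap3, which codes for the striatum-enriched SAPAP3 (ENSMUSG00000042388, chromosome 4, 127169204 to 127237022), had 11290, 11496 and 10956 normalized counts in WT-V, 11056, 11498 and 11376 in WT-M, 10448, 10474 and 9678 in KO-V, and 10578, 10542 and 10461 in KO-M mice. The 6 KO mice, at 9678 to 10578, all lay below the 6 WT mice, at 10956 to 11498. Neither comparison at a single treatment passed the threshold, with log2 fold changes of -0.14 in Veh-K/W (adjusted p = 0.315, limma; -0.10 without KO-V replicate 3) and -0.10 in Mem-K/W transcripts (adjusted p = 0.275, limma). Over both treatments, Dlgap3 fell to 0.919 times the WT level (log2 fold change -0.12, SE 0.03; limma, adjusted p = 0.0369). The call was lost when any one of 9 mice was left out, all but WT-V replicate 3, KO-V replicate 2 and KO-M replicate 3, with an adjusted p of up to 0.0954, which was the value without KO-V replicate 3 (log2 fold change -0.10). The size moved little, from -0.13 to -0.10.

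Dlgap4, coding for the broadly expressed SAPAP4 (ENSMUSG00000061689, chromosome 2, 156613705 to 156764363), had 8536, 8649 and 8598 normalized counts in WT-V, 8734, 8375 and 8474 in WT-M, 7845, 8083 and 7609 in KO-V, and 8644, 8563 and 8183 in KO-M mice. The 3 KO-V mice were the lowest of the 12, and the KO-M mice overlapped with both WT groups. None of the contrasts of Dlgap4 passed the threshold. Over both treatments its log2 fold change between genotypes was -0.07 (95% confidence interval -0.15 to 0.01, adjusted p = 0.211, limma). The log2 fold change was -0.13 in Veh-K/W transcripts (95% confidence interval -0.25 to -0.01; adjusted p = 0.316, limma; -0.11 without KO-V replicate 3) and -0.01 in Mem-K/W transcripts (-0.13 to 0.11; adjusted p = 0.925).

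Dlgap1, coding for SAPAP1, also called GKAP (ENSMUSG00000003279, chromosome 17, 69969073 to 70821413), had 13055, 12424 and 12079 normalized counts in WT-V, 13525, 13651 and 11727 in WT-M, 13715, 12653 and 13963 in KO-V, and 14984, 14341 and 13104 in KO-M mice. It was the only SAPAP gene whose pooled interval lay above 0, with a log2 fold change of 0.11 (95% confidence interval 0.01 to 0.22). It was not called (adjusted p = 0.134, limma). Without KO-V replicate 3 the log2 fold change of Dlgap1 was 0.10, and its interval (-0.01 to 0.22) included 0. Its genotypes overlapped under both treatments.

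Dlgap2, coding for SAPAP2 (ENSMUSG00000047495, chromosome 8, 14095865 to 14847680), had 2584, 2106 and 2422 normalized counts in WT-V, 2539, 2608 and 1832 in WT-M, 2493, 2342 and 2410 in KO-V, and 2473, 2424 and 2252 in KO-M mice. The 6 KO values lay inside the range of the WT values, and the lowest value was again that of WT-M replicate 3. Its pooled log2 fold change was 0.04 (95% confidence interval -0.12 to 0.21; adjusted p = 0.758, limma).

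Homer1 was lower in KO mice on average. Among the 6 KO mice its SD was 16.0% of the mean, more than for any Shank or SAPAP gene. Among the 6 WT mice it was 7.12%, less than for Dlgap2 (13.3%) and Shank1 (10.1%). Homer1 (ENSMUSG00000007617, chromosome 13, 93299635 to 93405129) had 5336, 5353 and 4507 normalized counts in WT-V, 5417, 5349 and 4884 in WT-M, 4734, 4143 and 3623 in KO-V, and 2985, 4134 and 4590 in KO-M mice. KO-V replicate 1 and KO-M replicate 3 lay above the lowest WT mouse, WT-V replicate 3, and KO-M replicate 1 lay far below the rest. Homer1 missed the threshold in Veh-K/W transcripts, at -0.29 on the log2 scale (95% confidence interval -0.51 to -0.06; adjusted p = 0.264, limma), and without KO-V replicate 3 the value was -0.19 (adjusted p = 0.610). In Mem-K/W transcripts it was -0.44 (-0.74 to -0.14; adjusted p = 0.127), which became -0.57 and passed (adjusted p = 0.0206) without KO-M replicate 3 and became -0.26 (adjusted p = 0.291) without KO-M replicate 1. Over both treatments Homer1 fell to 0.778 times the WT level (log2 fold change -0.36, SE 0.09; limma, adjusted p = 0.0268). The call was lost without WT-V replicate 2, WT-M replicate 1, WT-M replicate 2, KO-V replicate 3 or KO-M replicate 2, at adjusted p values of 0.0501 to 0.0697, and without KO-V replicate 3 the log2 fold change was -0.33. The deposited values do not separate Homer1a from the long Homer1 forms.

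Homer2, a long Homer with a coiled coil (ENSMUSG00000025813, chromosome 7, 81600481 to 81707527), had 2198, 2226 and 2235 normalized counts in WT-V, 2452, 2616 and 1960 in WT-M, 2395, 2187 and 2155 in KO-V, and 1988, 1862 and 2192 in KO-M mice. The KO-M mice held 2 of the 3 lowest values, and the genotypes overlapped under both treatments. Its pooled log2 fold change was -0.10 (95% confidence interval -0.25 to 0.05; adjusted p = 0.377, limma).

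Homer3, the Homer most abundant in cerebellar Purkinje cells (ENSMUSG00000003573, chromosome 8, 70282827 to 70294361), had 386, 404 and 365 normalized counts in WT-V, 351, 457 and 476 in WT-M, 445, 436 and 602 in KO-V, and 662, 371 and 515 in KO-M mice. All KO-V mice lay above all WT-V mice, and the highest of them was KO-V replicate 3, the mouse with the high cerebellar markers. KO-M replicate 1 was higher still, and its Pcp2 level was 11.9, within the range of the other mice. Over both treatments the log2 fold change was 0.29 (95% confidence interval 0.02 to 0.56, adjusted p = 0.139, limma). It was 0.24 in Mem-K/W transcripts (adjusted p = 0.503, limma). In Veh-K/W transcripts it was 0.34 (95% confidence interval 0.06 to 0.63, adjusted p = 0.279, limma). Without KO-V replicate 3 the Veh-K/W value was 0.19 (adjusted p = 0.633, limma). Beyond leaving that mouse out, the part of the cerebellar markers in this value was not tested. Of the exon bases of Homer3, 874 (25.4%) are also exon bases of Ddx49 on the opposite strand. The library kit does not mark strand, so reads from the shared bases cannot be assigned by strand. For the other members such overlap was at most 4.16% of exon bases.

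**Figure D2:**
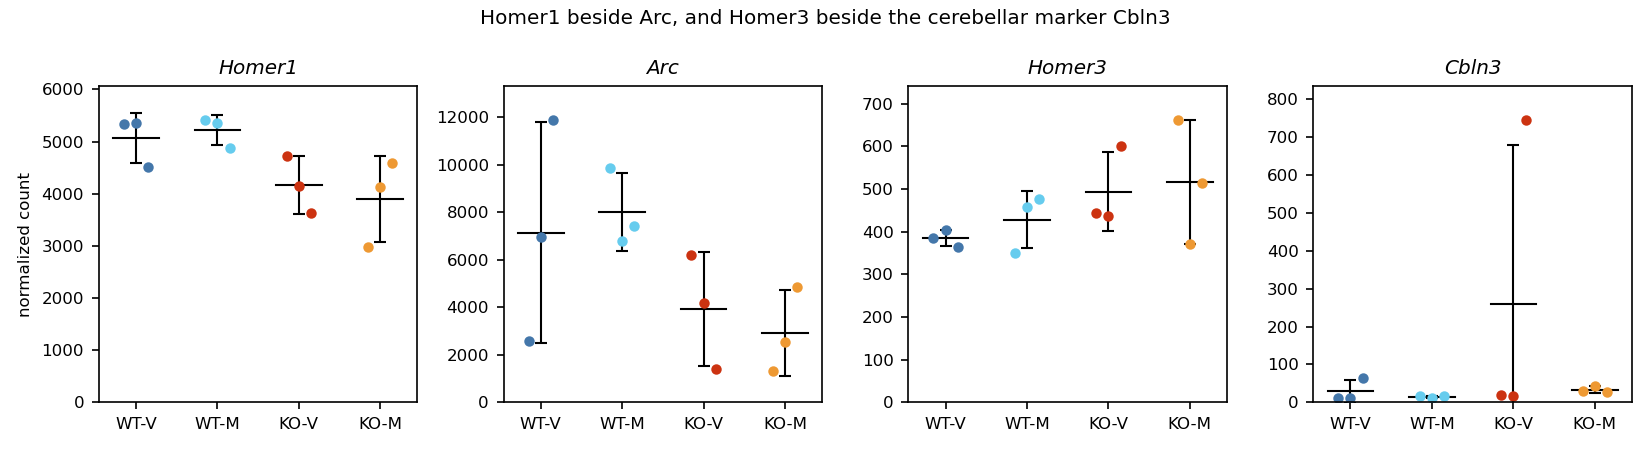
Normalized counts (vertical axes, from 0) of Homer1, the activity-induced gene Arc, Homer3 and the cerebellar marker Cbln3 in the 12 mice, with bars for the mean and SD of the 3 mice in each group. Homer1 and Arc are lower on average in KO mice with overlap between genotypes, and Cbln3 is near 0 in all mice but KO-V replicate 3, at 745.

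Counted over the family, the share of called members was 1 of 10 in Veh-K/W transcripts, where 0.0283% of all 17671 genes tested were called, and 1 of 10 in Mem-K/W transcripts, where 0.068% of 17646 were called. In each case the called member was the mutated gene itself. With 1 mouse left out at a time, from 2 to 53 genes were called in Veh-K/W transcripts, the most without KO-V replicate 2, and from 2 to 1911 in Mem-K/W transcripts, the most without KO-M replicate 3. The fit of all 12 mice called 636 genes in Mem-K/W transcripts. In the pooled comparison 3 of 10 members were called, namely Shank2, Dlgap3 and Homer1, beside 10.8% of 17655 genes. Without Shank2 this leaves 2 of 9, and without KO-V replicate 3 only Shank2 of the 10 was called, beside 3.94% of genes. The pooled log2 fold changes without that mouse were -0.11 for Shank1, -0.08 for Shank3, 0.10 for Dlgap1, 0.04 for Dlgap2, -0.06 for Dlgap4, -0.10 for Homer2 and 0.22 for Homer3, none of them called. Groups did not overlap for 4 of 10 members in Veh-K/W transcripts (20.4% of all genes), for 4 in Mem-K/W transcripts (26.2%) and for 2 in the pooled comparison (4.06%). The median log2 fold change of the 9 members other than Shank2 was -0.10 in the pooled comparison, where the median over all genes was 0.00351.

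**Figure D3:**
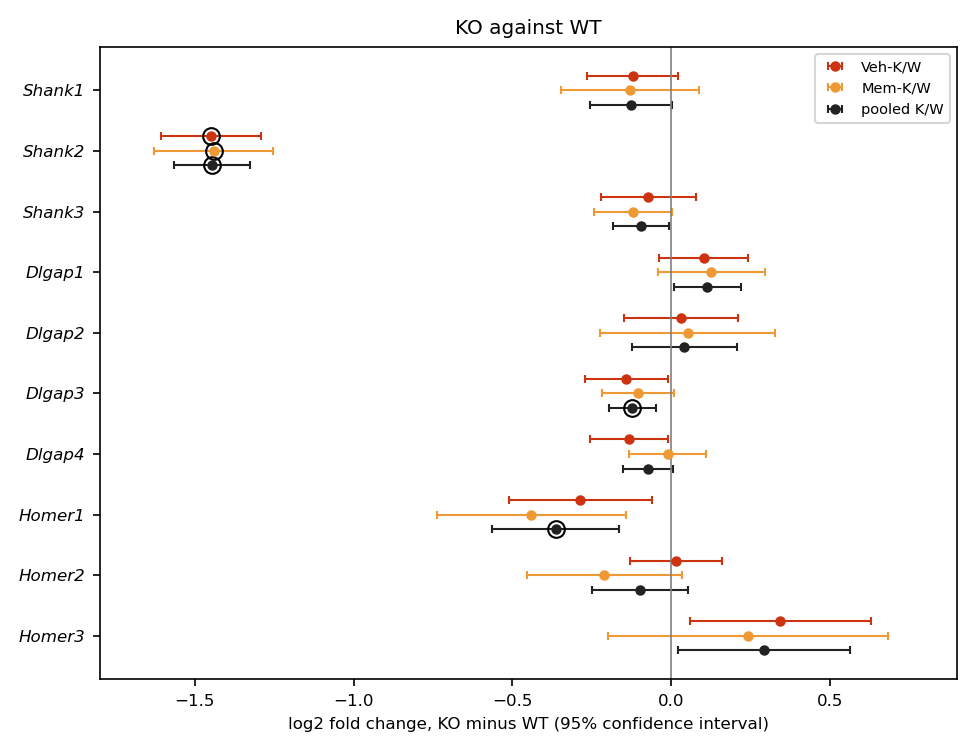
Log2 fold change of KO over WT mice (horizontal axis, bars for the 95% confidence interval) for the 10 scaffold genes under vehicle, under memantine and over both treatments. Circled points passed an adjusted p of 0.05 in limma, which were Shank2 in all 3 comparisons and Dlgap3 and Homer1 over both treatments.

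Memantine itself left no called difference in any of the 10 genes. None was called in KO-M/V transcripts (KO-M against KO-V), in which limma called 0 of 17707 genes (percent called 0) and 1573 had an unadjusted p below 0.05; without KO-M replicate 3, 97 genes were called there. None was called in WT-M/V transcripts (WT-M against WT-V), in which 2 of 17564 genes (0.0114%) were called. Dlgap4 had the only unadjusted p below 0.05 among the members in KO-M/V transcripts (8.88% of all genes), and was the only member whose groups did not overlap there (13.9% of all genes). It stood 0.11 higher after memantine on the log2 scale (95% confidence interval 0.00 to 0.22), but its adjusted p was 0.557 (limma). With 1 mouse left out at a time the value of Dlgap4 ran from 0.088 to 0.13 and was never called. Homer2 had a log2 fold change of -0.16 in KO-M/V transcripts (95% confidence interval -0.33 to 0.01; adjusted p = 0.566, limma). For Homer1 the interval ran from -0.45 to 0.23 in KO mice and from -0.14 to 0.23 in WT mice. For Shank2 it ran from -0.19 to 0.15 in KO mice and from -0.20 to 0.16 in WT mice. Changes within these bounds are compatible with the values, but the bounds are not limits of detection. With 3 mice per group, a change beyond them could also go uncalled after adjustment over all genes.

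Whether the genotype difference depended on memantine was asked with the genotype by treatment interaction, which called 0 of 17655 genes in limma (percent called 0; 840 at an unadjusted p below 0.05). Among the members, Homer2 had the interaction farthest from 0 when all 12 mice were fitted, at -0.23 on the log2 scale (95% confidence interval -0.51 to 0.06; -0.35 without WT-M replicate 3 and -0.14 without WT-M replicate 2), followed by Homer1 at -0.15 (-0.56 to 0.25) and Dlgap4 at 0.12 (-0.03 to 0.27). Their adjusted p values were 0.947, 0.953 and 0.947 (limma). Over both genotypes together, Dlgap4 differed between memantine and vehicle by 0.05 (95% confidence interval -0.03 to 0.13; adjusted p = 0.721, limma), and no member and no other gene was called, with 1519 genes at an unadjusted p below 0.05.

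**Figure D4:**
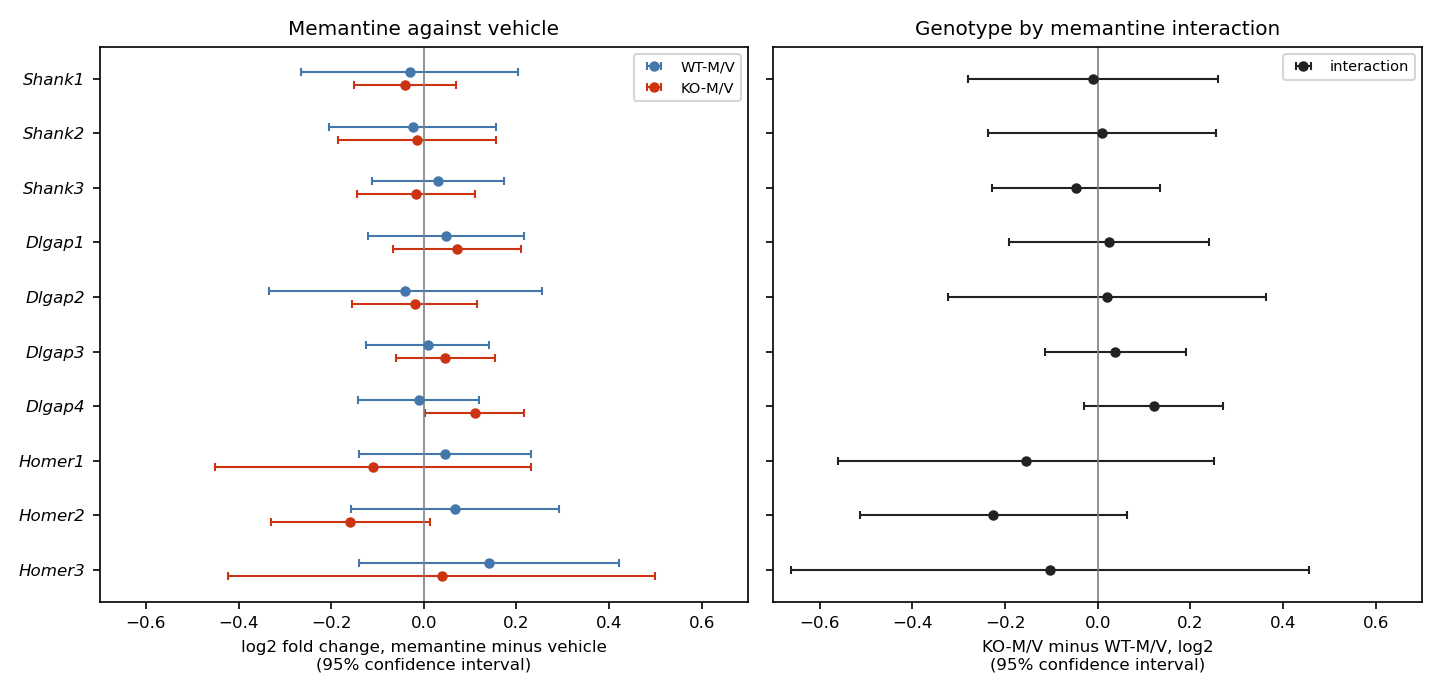
Log2 fold change of memantine over vehicle in WT and in KO mice (left) and the difference between them, the interaction (right), for the 10 scaffold genes, with bars for the 95% confidence interval. No gene was called, and on the left the intervals of Homer1 and Homer3 in KO mice are the widest.

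Shank2 was also the one member called in both comparisons that cross genotype with treatment. KO-M mice were compared with WT-V mice, giving KO-M/WT-V transcripts, which asks whether treated mutants still differ from untreated controls, and Shank2 was called there (log2 fold change -1.47, adjusted p = 7.01e-05, limma; 3.37% of 17662 genes called). The share moved with single mice, since 2490 genes were called without KO-M replicate 3 and from 1 to 54 without any other mouse, against 595 with all 6, and the fit of all 12 mice called 2067. Homer1 stood at -0.39 there (adjusted p = 0.118, limma), and passed, at -0.52 (adjusted p = 0.0324), without KO-M replicate 3. In WT-M/KO-V transcripts Shank2 was called as well (1.43, adjusted p = 6.59e-05, limma; 0.0227% of 17648 genes called), and Homer1 was 0.33 higher in WT-M mice without a call (adjusted p = 0.441). These comparisons share mice with those above and are not independent of them.

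The order of the members by level was read from normalized counts divided by the union of annotated exons. In WT-V mice Dlgap3 stood highest, at 2488 ± 60.3 normalized counts per kilobase (SD, n = 3), followed by Shank1 at 1649 ± 81.6, Shank3 at 1126 ± 61.2 and Dlgap4 at 1017 ± 6.70. Shank2 (743 ± 46.2) and Dlgap1 (700 ± 27.7) came next and overlapped with each other, as did Homer1 (423 ± 40.4) and Dlgap2 (386 ± 39.6). Homer2 (176, range 174 to 177) and Homer3 (112 ± 5.60) were lowest. In KO-V mice Shank2 moved from rank 5 to rank 8, at 272 ± 16.6 per kilobase, below Homer1 at 348 ± 46.4. Divided by the longest annotated transcript instead, Dlgap3 stayed first, and Dlgap4, Shank1 and Dlgap1 overlapped with each other behind it.

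Partner proteins of the scaffolds were taken as 29 genes, 8 that bind SAPAPs, 12 that bind Shanks and 9 that bind Homers, and all 29 were tested. Over both treatments 2 were called higher and 3 lower in KO mice, beside 4.89% of all genes called higher and 5.91% called lower. None of the SAPAP partners was called, including the PSD-95 family genes Dlg1 to Dlg4. The SAPAP partners with the largest values were Dynll1, a dynein light chain (-0.24, adjusted p = 0.0706, limma), and Magi2, a membrane-associated guanylate kinase (0.13, adjusted p = 0.0958, limma). Dynll1 ran from -0.29 to -0.18 with each mouse left out in turn, at adjusted p values of 0.0393 to 0.156, and passed only without WT-V replicate 3 or KO-V replicate 2. Without KO-V replicate 3 the adjusted p was 0.124 for Dynll1 and 0.195 for Magi2.

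Of the Shank partners, 1 rose and 3 fell. Abi1, a subunit of the WAVE actin-regulating complex, rose from 2575 ± 121 to 3146 ± 290 normalized counts (SD, n = 6; log2 fold change 0.28, adjusted p = 0.0140, limma). Asap1, a GTPase-activating protein for Arf GTPases, fell from 4589 ± 159 to 4000 ± 244, with all 6 KO mice below all 6 WT mice (-0.20, adjusted p = 0.0157, limma). Both calls held with each of the 12 mice left out in turn. For Abi1, KO-M replicate 3 lay at 2627, among the WT mice at 2426 to 2715. Neither gene was called in Veh-K/W transcripts (adjusted p = 0.135 for Abi1 and 0.342 for Asap1, limma). Neither was called in Mem-K/W transcripts (adjusted p = 0.186 and 0.0974, limma). Lzts3, which codes for ProSAPiP1, fell (-0.18, adjusted p = 0.0327, limma), as did Dbnl, which codes for the actin-binding protein drebrin-like (-0.17, adjusted p = 0.0443, limma). Lzts3 stayed called only without WT-V replicate 1, KO-V replicate 2 or KO-M replicate 3, and Dbnl only without WT-V replicate 1 or KO-M replicate 3. Without KO-V replicate 3 their adjusted p values were 0.0653 and 0.0980 (limma). Of the 29 partners 2 were then called higher and 1 lower, beside 3.94% of all genes called in either direction.

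Of the Homer partners only Itpr3, a calcium release channel opened by inositol trisphosphate, was called. It had 232, 268 and 245 normalized counts in WT-V, 248, 227 and 223 in WT-M, 513, 404 and 504 in KO-V, and 359, 301 and 243 in KO-M mice. All KO-V mice lay above all WT mice, whereas KO-M replicate 3 lay among the WT mice. Itpr3 rose over both treatments (log2 fold change 0.64, adjusted p = 0.00902, limma), and the call held with each mouse left out in turn, at 0.58 to 0.73. In Veh-K/W transcripts its rise of 0.92 (adjusted p = 0.0493, limma) stayed called only when KO-V replicate 2 was the mouse left out, and was 0.87 without KO-V replicate 3 (adjusted p = 0.297). In Mem-K/W transcripts Itpr3 stood at 0.35 without a call (adjusted p = 0.220, limma), passing only without KO-M replicate 3 (0.50, adjusted p = 0.0464), and in KO-M/V transcripts it was -0.66 (adjusted p = 0.554, limma). The interaction was -0.57 (adjusted p = 0.947, limma). The receptor gene Grm5 was not called, and Ryr2, a ryanodine receptor, stood at -0.12 (adjusted p = 0.229, limma), passing only without WT-M replicate 3 (adjusted p = 0.0222), with an adjusted p of 0.402 without KO-V replicate 3.

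**Figure D5:**
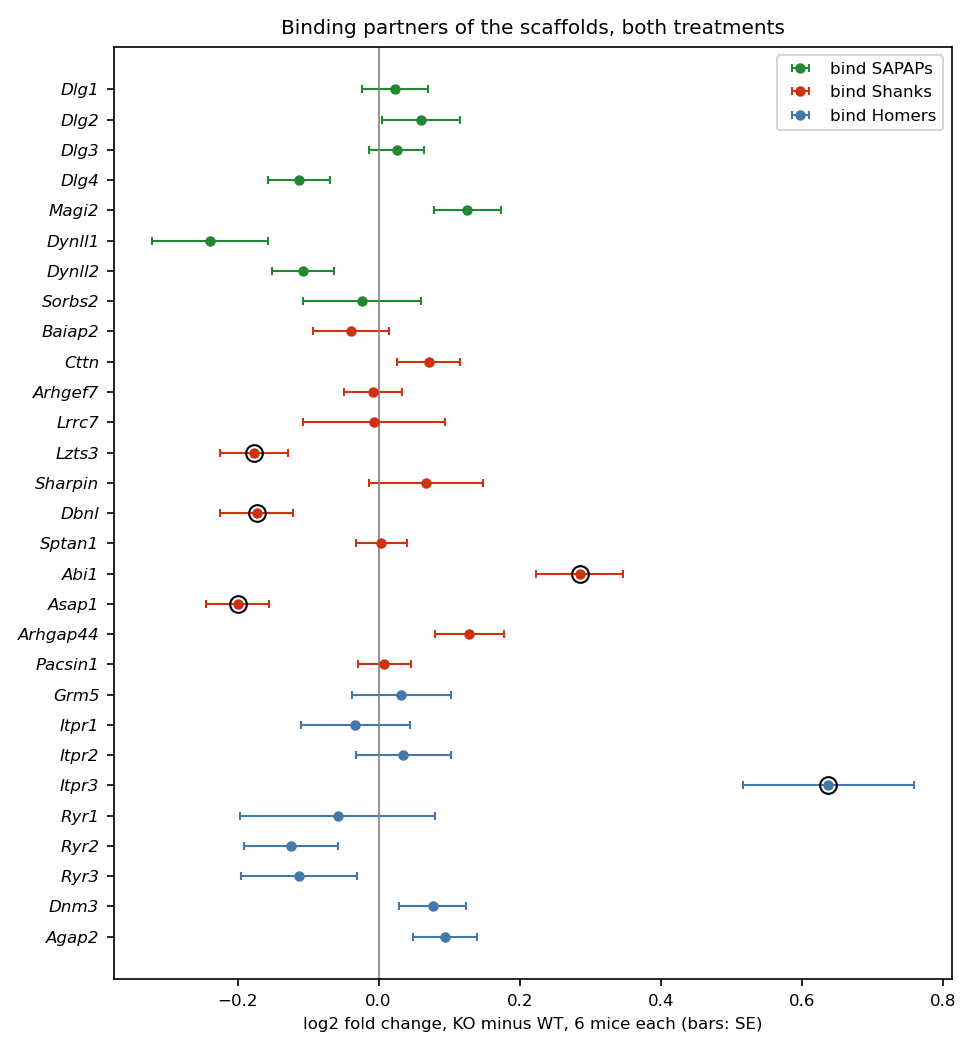
Log2 fold change of KO over WT mice over both treatments (horizontal axis, bars for the SE, 6 mice per genotype) for 29 genes whose proteins bind SAPAPs, Shanks or Homers. Circled points passed an adjusted p of 0.05 in limma, with Abi1 and Itpr3 higher and Lzts3, Dbnl and Asap1 lower in KO mice.

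Homer1 was set beside 10 other immediate early genes, since Homer1a is one of that class. The summed normalized count of these 10 ran from 15383 to 34814 among the WT-V mice alone. None of the 10 was called over both treatments, but all had values below 0, beside 49.1% of all genes. The median log2 fold change of the 10 was -0.48 (0.00351 over all genes), and -0.37 without KO-V replicate 3. The most negative was Arc, a dendritic gene induced by activity (-1.25, adjusted p = 0.0578, limma), with 2598, 6948 and 11896 normalized counts in WT-V, 9858, 6779 and 7416 in WT-M, 6213, 4195 and 1403 in KO-V, and 1310, 2528 and 4874 in KO-M mice. KO-V replicate 3 and KO-M replicate 1 had the lowest values of both Arc and Homer1, whereas among WT-V mice replicate 3 had the highest Arc and the lowest Homer1. With each mouse left out in turn, Arc ran from -1.56 to -0.99, at adjusted p values of 0.0186 to 0.138, and passed only without WT-V replicate 1, KO-V replicate 1 or KO-M replicate 3. Without KO-V replicate 3 it was -1.02 (adjusted p = 0.135, limma).

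The start region of Homer1 is shown because activity-induced genes of this class are known for cAMP response elements near their starts. The 250 bases before an annotated Homer1 start (chr13:93303507-93303756, plus strand, GRCm38.p6, from RefSeq) are in lower case with each TGACGT, the core of a cAMP response element, in capitals.
Homer1 start region: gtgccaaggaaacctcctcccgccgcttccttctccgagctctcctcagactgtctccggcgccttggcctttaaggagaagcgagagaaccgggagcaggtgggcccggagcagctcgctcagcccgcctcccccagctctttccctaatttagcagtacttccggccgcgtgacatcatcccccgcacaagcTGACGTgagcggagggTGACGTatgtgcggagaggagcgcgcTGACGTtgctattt
Of the Homer1 windows, the one with the most matches was printed, so the shares below do not measure how rare it is. TGACGT was searched on both strands and was found 3 times here. Of 32851 windows of 250 bases before annotated starts, 6.47% held it at least once and 0.152% at least 3 times. Windows were given for 7 of the members, 10 in all, and it was found in this one alone, not in the second Homer1 window. A match is a run of letters and not a measured binding site.

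Markers of other cell types also differed between genotypes over both treatments. Called lower in KO mice were 3 of 4 oligodendrocyte, 3 of 3 endothelial and 4 of 4 red blood cell markers. So were 1 of 4 astrocyte and 1 of 4 microglial markers, beside 5.91% of all genes. Called higher was 1 of 3 inhibitory neuron markers, beside 4.89% of all genes. None of the 3 choroid plexus markers and none of the 5 cerebellar markers was called. Without KO-V replicate 3, 3 of 4 oligodendrocyte, 2 of 4 red blood cell and 1 of 4 astrocyte markers were called lower. No endothelial, microglial or inhibitory neuron marker was then called, and 3.94% of all genes were called in either direction. The summed normalized count of the oligodendrocyte markers was 294600 to 369142 in WT-V, 264367 to 309520 in WT-M, 256892 to 274091 in KO-V and 215670 to 253693 in KO-M mice. That of the 6 neuron markers was 154023 to 171043, 162242 to 171089, 159212 to 165308 and 156857 to 163151 in the same order. Red blood cell markers summed to 19264 to 26106, 13147 to 14617, 7473 to 18552 and 5592 to 12370. The part of these differences in the values of Dlgap3 and Homer1 was not tested.

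Across the 12 mice, the members were also compared with each other and with the 12877 genes at a mean of at least 100 normalized counts, as a description without a test. These points share genotype and normalization. Among the members, Shank2 and Dlgap3 had the highest Pearson correlation of log2 values (r = 0.86), followed by Shank3 with Homer1 (r = 0.83) and Shank1 with Homer2 (r = 0.78), and Homer1 with Homer3 had the most negative (r = -0.72). The nearest genes outside the family were Pclo for Shank1 (r = 0.95), Rasgrp3 for Shank2 (0.95), Mmd for Shank3 (0.97), Braf for Dlgap1 (0.98) and Nav2 for Dlgap2 (0.95). For the rest they were Lamp5 for Dlgap3 (0.93), Dkk3 for Dlgap4 (0.92), Fn3krp for Homer1 (0.97), Gabrb1 for Homer2 (0.95) and Wdr81 for Homer3 (0.95).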

How the data were processed

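RNA libraries were made with TruSeq RNA Sample Prep Kit v2. The authors quantified transcripts with Salmon, imported gene values with tximport and deposited normalized counts, a signal scaled between mice with DESeq2. The submitters' processing notes name Salmon 1.1.0, R 3.6.2, DESeq2 1.26.0 and GRCm38; the annotation release and the gene filter are not given in the sources used here. The deposited values are not whole numbers and whole reads could not be recovered, so limma was used and not edgeR, which had been planned for counts.

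Gene symbols, positions and exon lengths came from GENCODE M21, which matched 19295 of 19312 genes. Each comparison was fitted with limma 3.58.1 in R 4.3.3 (lmFit, eBayes with trend) on log2(value + 1). Genes whose mean over the mice of that fit was below 10 were left out, and p-values were adjusted by Benjamini-Hochberg over all genes tested; an adjusted p below 0.05 is called. Pairwise comparisons used their own 6 mice. The pooled comparison used all 12 with genotype and treatment as terms, and the interaction added their product. Fold changes are on the log2(value + 1) scale. The scripts were tested on simulated data.

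Called cell type markers are counted and not named, and Arc was singled out after its values were seen. The text names all 10 members, called partner genes, the 2 largest changes of each partner list, and the genes most like each member. For the last of these the text prints the nearest gene of each member. A further partner gene was left out of the lists and is not reported here. The members and lists were chosen with earlier results of these data known. Nothing says that the 3 mice of a group came from separate litters, so p-values measure the spread among these mice. Replicate numbers were not taken as pairs: deviations of same-numbered mice correlated at r = -0.18 to 0.08 over 18 pairs.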

Additional observations from a re-analysis of the deposited data

How the results depend on the processing

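Other pseudocounts, filters, upper-quartile scaling, the fit of all 12 mice, and the replicate block changed no call of a member. With the replicate number as a block, 3 members were still called over both treatments, and 1 of 12 mice correlated best with its own number; Itpr3 in Veh-K/W and WT-M/KO-V transcripts was lost under the block (adjusted p = 0.0985 and 0.0690, limma), and in Veh-K/W transcripts also under another pseudocount, filter, scaling or the joint fit. With each mouse left out in turn, 1 to 3 members were called over both treatments, 1 to 2 in Mem-K/W and 1 to 2 in KO-M/WT-V transcripts, and the count over all genes in the pooled comparison ran from 694 without KO-V replicate 3 to 2683 without KO-M replicate 3. The cause was not tested.

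Small uncalled values changed sign when a mouse was left out. Dlgap2 ran from -0.051 to 0.096 in Veh-K/W, from -0.11 to 0.14 in Mem-K/W and from -0.032 to 0.081 in the pooled comparison. Dlgap4 ran from -0.027 to 0.013 in Mem-K/W, and Homer2 from -0.032 to 0.044 in Veh-K/W transcripts. Shank2 ran from -0.083 to 0.033 in KO-M/V and from -0.084 to 0.044 in WT-M/V, and Homer1 from -0.24 to 0.073 in KO-M/V, from -0.036 to 0.092 in WT-M/V and from -0.28 to 0.027 in the interaction. Divided by the longest transcript, the WT-V levels per kilobase were 2673 for Dlgap3, 1772 for Dlgap4, 1764 for Shank1, 1745 for Dlgap1, 1405 for Shank3, 890 for Shank2, 887 for Homer1, 527 for Dlgap2, 202 for Homer2 and 148 for Homer3. A group of 3 mice limits what can be called, and the read depth behind each value is unknown.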
